A study of Mus musculus with 4 samples.

Results

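The immunoglobulin constant genes and the genes for IgA assembly and export were described in 4 RNA-seq libraries of mouse intestinal tissue. The set held 10 genes of 55203 listed for each library, named by symbol and chosen with earlier results of these data known. They were the heavy chain constant genes Igha, Ighm, Ighd, Ighg1, Ighg2b and Ighg3, the light chain constant genes Igkc and Iglc1, Jchain, and Pigr. All samples came from wild-type male C57BL/6NTac mice, aged 8 to 12 weeks and kept free of specific pathogens (SPF). In 2 libraries, called RVC 1 and RVC 2, the label names a treatment with 4 mM RVC (ribonucleoside vanadyl complex), a ribonuclease inhibitor. The other 2 libraries, fresh frozen 1 and fresh frozen 2, were labelled as fresh frozen, and the protocol text attached to all 4 libraries describes only the RVC rinse. Values of a pair are given in the order of the sample numbers, 1 then 2. Each library had its own batch number, so batch and handling cannot be told apart. The labels do not say whether the libraries came from separate mice, so p-values measure only the spread between these libraries.

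Values were FPKM, fragments scaled to transcript length and to the mapped fragments of the library, summed over the transcripts of a gene. This unit is per length, so levels of different genes were set side by side. Bias between genes with transcripts as unlike in length as those of Iglc1 (454 nt) and Pigr (3849 nt) was not tested. The number of reads is unknown, and the ratio of coverage to FPKM placed the shallowest library, fresh frozen 1, at 72.6% of the depth of the deepest, fresh frozen 2. The labels named ileum and the protocols distal colon. The summed FPKM of 11 colon genes ran from 6847 to 10315 over the libraries, that of 11 ileum genes from 21.1 to 49.7, and 5 ileum genes (Fgf15, Apoa4, Defa17, Defa22, Defa26) had a value of 0 throughout. Most abundant were Saa1 in the colon list (2353 to 3881 FPKM) and Fabp2 in the ileum list (14.5 to 43.7), with the highest Fabp2 value in fresh frozen 2. The smallest p-values in these lists were those of Mettl7b, Car4 and Saa1 (log2 fold changes 0.35, 0.59 and 0.52) and of Fabp2, Fabp6 and Slc10a2 (-0.73, -0.22 and 0.028), and 0 genes passed the test described further on. In tissue libraries such as these, fewer cells of a type and less RNA per cell cannot be told apart.

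Plasma cells beneath the gut epithelium are the main producers of IgA. Each antibody pairs heavy chains, whose constant region sets the isotype, with kappa or lambda light chains, and a J chain links IgA monomers into dimers. The polymeric immunoglobulin receptor, encoded by Pigr, binds these dimers at the base of epithelial cells, carries them across the cell and is cut at the luminal surface, which releases secretory IgA. A B cell first makes IgM and IgD and can then switch its heavy chain gene to an IgG, IgE or IgA constant gene farther downstream. Heavy chain transcripts end either in a membrane anchor, as in the B cell receptor, or in a secreted tail.

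The ends of the secreted heavy chains are shown because they separate the chains that bind the J chain from those that do not, and because the libraries tell the secreted from the membrane transcripts at this point. Each sequence is the coding end of the secreted transcript in GENCODE vM39 (GRCm39, chromosome 12, minus strand), read 5′ to 3′ from 18 bases before the splice donor that the membrane form uses to the stop codon. The capitals GT mark the start of that donor, which the secreted form reads through as coding sequence. The capitals TGC near the end mark the codon of the second-last residue, the cysteine through which IgA and IgM are bonded to the J chain.
Igha, chr12:113222388-113222467: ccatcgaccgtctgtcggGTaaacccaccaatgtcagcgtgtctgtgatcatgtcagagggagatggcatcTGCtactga
Ighm, chr12:113384487-113384566: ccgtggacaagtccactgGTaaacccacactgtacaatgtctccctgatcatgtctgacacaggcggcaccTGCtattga
Ighg1, chr12:113292596-113292621: gcctctcccactctcctgGTaaatga
Ighg2b, chr12:113270009-113270034: ccatctcccggtctccggGTaaatga
Ighg3, chr12:113323285-113323310: acctgtctcgctcccctgGTaaatga
The secreted-only stretch was 62 bases long in both Igha and Ighm, with the same base at 43 of the 62 positions (69.4%). In the IgG genes it was 8 bases long, stop codon included, and held no cysteine codon at the second-last place.

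IgA was the dominant heavy chain transcript in every library. Igha (ENSMUSG00000095079, GRCm39 chromosome 12, 113218450 to 113223856, minus strand) measured 291 and 244 FPKM in the RVC pair and 66.7 and 134 in the frozen pair. Both RVC libraries lay above both fresh-frozen libraries, and fresh frozen 1 was the lowest by far. Next came Ighm, the IgM heavy chain gene (113382178 to 113386350 on chromosome 12), at 2.79, 3.67, 1.68 and 3.00 FPKM in the same order. Over the 4 libraries the Igha to Ighm ratio ran from 39.8 in fresh frozen 1 to 104.5 in RVC 1. This ratio depends on the transcripts counted: with the most abundant transcript of each gene alone, which for Ighm is a membrane transcript, it was 149 and 154 in the RVC pair and 85.5 and 77.6 in the frozen pair.

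The IgG genes and Ighd were low. Ighg2b measured 1.30 and 2.37 FPKM in RVC 1 and RVC 2, and 0.521 and 1.22 in fresh frozen 1 and 2. Ighg1 measured 1.50 and 2.56 FPKM in the RVC pair and 0.0922 and 0.651 in the frozen pair, without overlap between the groups. Fresh frozen 1 was the lowest library for every heavy chain gene of the set. Ighd, the IgD heavy chain gene, measured 0.378, 0.705, 0.0630 and 0.847 FPKM in RVC 1, RVC 2, fresh frozen 1 and fresh frozen 2, and its groups overlapped. Ighg3 measured 0.134 and 0.411 FPKM in RVC, was listed at 0 in fresh frozen 1 and measured 0.0646 in fresh frozen 2. Of the heavy chain genes outside the set, Ighg2c reached at most 0.195 FPKM and was listed at 0 in fresh frozen 1, and Ighe, the IgE gene, was listed at 0 in all but RVC 2, where it measured 0.0312. By mean over the libraries the order was Igha (184 ± 102 FPKM, SD, n = 4), Ighm (2.78 ± 0.828), Ighg2b (1.35 ± 0.762), Ighg1 (1.20 ± 1.07), Ighd (0.498 ± 0.350) and Ighg3 (0.152 ± 0.181). Igha stood above Ighm, and Ighm above Ighg2b, in each of the 4 libraries. Ighg2b and Ighg1, and likewise Ighg1 and Ighd, changed places between libraries and did not differ beyond their spread.

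**Figure D1:**
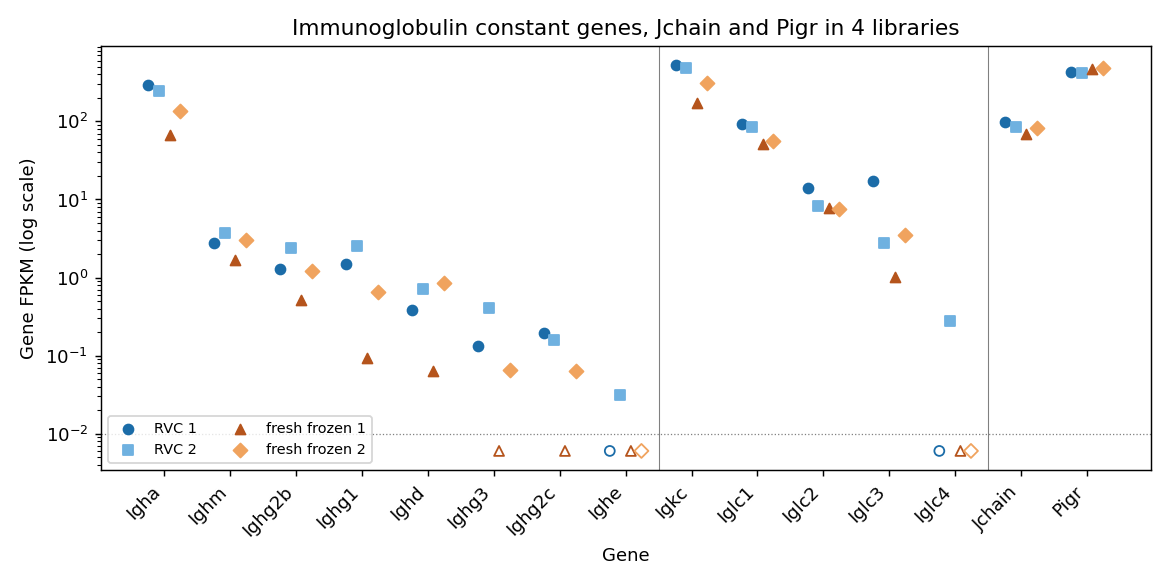
Gene FPKM on a log axis for the 13 immunoglobulin constant genes, Jchain and Pigr, with 1 point per library. Open points under the dotted line were listed under 0.01 FPKM. Igha stands far above the other heavy chain genes in all 4 libraries, and Pigr differs little between them.

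As a share of the FPKM summed over all 8 heavy chain constant genes, Igha took 97.9% and 96.1% in the RVC pair and 96.6% and 95.8% in the frozen pair. The mean was 96.6% ± 0.912 (SD, n = 4), and the ranges of the groups overlapped. So the Igha share stayed between 95.8% and 97.9%, while the Igha level ran from 66.7 to 291 FPKM. The Ighm share was 0.937% and 1.45% in the RVC pair and 2.43% and 2.14% in the frozen pair, without overlap between the groups. With the most abundant transcript of each gene alone it was 0.657% and 0.632% against 1.15% and 1.25%, again without overlap. All IgG genes together took 1.05%, 2.17%, 0.887% and 1.43% in the order RVC 1, RVC 2, fresh frozen 1 and fresh frozen 2, and the groups overlapped. Ighd took between 0.0913% and 0.604%. With 2 libraries in each group, a two-sided exact permutation test of a share cannot give a p below 0.333, so no share was tested. Along the chromosome, in the direction of transcription, the order is Ighm, Ighd, Ighg3, Ighg1, Ighg2b, Ighg2c, Ighe and Igha. Igha lies last, 162 kb downstream of the start of Ighm.

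The secreted and membrane forms were told apart by the transcript that ends upstream (secreted) and the transcript that runs on to the membrane exons. For Igha the secreted transcript ENSMUST00000178282 (1100 nt) carried 290 and 243 FPKM in the RVC pair and 66.4 and 134 in the frozen pair. The membrane transcript ENSMUST00000194738 (2540 nt) carried 0.879, 0.536, 0.344 and 0.373 FPKM. The secreted form made up 99.5% to 99.8% of Igha in the 4 libraries. The confidence bounds in the files ran from 276 to 304 FPKM for the secreted form in RVC 1 and from 62.0 to 70.8 in fresh frozen 1, so the bounds of these libraries lay far apart.

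Ighm differed from Igha in this respect. Its secreted transcript ENSMUST00000103426 measured 0.844, 2.08, 0.900 and 1.27 FPKM in RVC 1, RVC 2, fresh frozen 1 and fresh frozen 2, and its membrane transcript ENSMUST00000177715 measured 1.94, 1.58, 0.776 and 1.73. The secreted share of Ighm was 30.3%, 56.8%, 53.7% and 42.5%, below that of Igha in every library. Within RVC 2, fresh frozen 1 and fresh frozen 2 the bounds of the 2 forms of Ighm overlapped, so their order is not resolved there. In Ighd, which is known from mature B cells, the membrane transcript carried 0.378, 0.705, 0.0406 and 0.756 FPKM and the secreted transcript at most 0.0904. The IgG genes were mostly secreted. The secreted share of Ighg2b ran from 94.3% to 97.9%, and that of Ighg1 from 71.2% in fresh frozen 1, where the gene stood under 0.1 FPKM, to 98.4% in RVC 1.

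**Figure D2:**
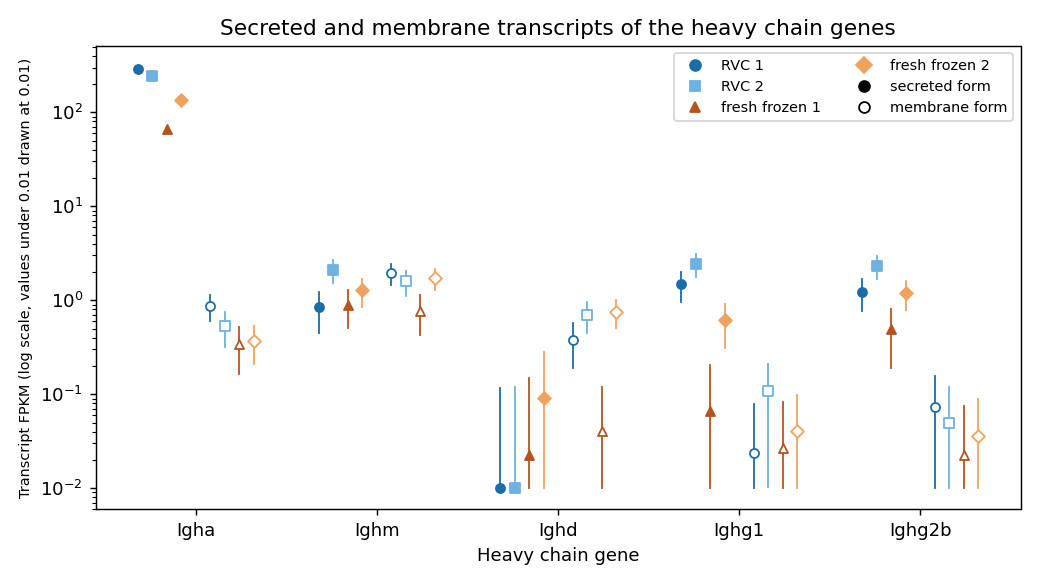
Transcript FPKM on a log axis for the secreted (filled) and membrane (open) forms of 5 heavy chain genes, 1 point per library with the confidence bounds of the files as vertical lines. Igha, Ighg1 and Ighg2b lie mainly in the secreted form, Ighd in the membrane form outside fresh frozen 1, and Ighm in both.

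Kappa was the main light chain. Igkc (ENSMUSG00000076609, chromosome 6, 70703419 to 70703950, plus strand), the only kappa constant gene, measured 525 and 484 FPKM in the RVC pair and 172 and 307 in the frozen pair. Iglc1 (ENSMUSG00000105906, chromosome 16, 18880368 to 18880821, minus strand), a lambda constant gene, measured 91.6, 85.4, 50.9 and 55.4 FPKM. Both genes stood higher in both RVC libraries than in either fresh-frozen library. The Igkc to Iglc1 ratio was 5.73 and 5.67 in the RVC pair and 3.38 and 5.54 in the frozen pair. Only fresh frozen 1 stood apart, since the other 3 libraries lay between 5.54 and 5.73.

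The other lambda constant genes were lower. Iglc2 measured 14.1, 8.34, 7.79 and 7.65 FPKM, and Iglc3 measured 17.5, 2.74, 1.01 and 3.56, in RVC 1, RVC 2, fresh frozen 1 and fresh frozen 2. Iglc4 was listed at 0 in all but RVC 2, at 0.274. Iglc3 was high in RVC 1 alone, where the bounds of the estimate ran from 14.3 to 20.7 FPKM against 1.47 to 4.02 in RVC 2. Iglc2 and Iglc3 differ at 11 of 317 aligned coding bases, with an identical run of up to 79 bases, whereas Iglc1 shares 73.2% of its aligned bases with Iglc2. How reads were divided between these near-identical genes is not given in the sources used here, so their values are uncertain. A stretch with 4 of the differing bases, in capitals, is shown to make the likeness of the genes visible, from GENCODE vM39 (GRCm39, minus strand, 5′ to 3′).
Iglc2, chr16:19017546-19017593: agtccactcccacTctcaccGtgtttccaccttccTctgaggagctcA
Iglc3, chr16:18884375-18884422: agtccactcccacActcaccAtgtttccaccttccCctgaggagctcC
No exact 150-base window of any constant gene, Jchain or Pigr occurred in an annotated transcript of another gene (0 of 383 windows for Igkc, 0 of 305 for Iglc1 and 0 of 2519 for Igha). Iglc2 and Iglc3 also had 0 shared windows despite their likeness. The search counted exact matches only, so it cannot show how reads with mismatches were placed. Of the light chain FPKM summed over these 5 genes, kappa made up 81.0% and 83.3% in the RVC pair and 74.2% and 82.2% in the frozen pair (mean 80.2% ± 4.09, SD, n = 4). The ratio of kappa to all lambda was 4.27, 5.01, 2.88 and 4.60, with overlap between the groups. Light chain exceeded heavy chain in all libraries, by a ratio of 2.18 and 2.29 in the RVC pair and 3.36 and 2.66 in the frozen pair, without overlap.

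Jchain and Pigr varied less than the chains they serve. Jchain (ENSMUSG00000067149, chromosome 5, 88667668 to 88675750, minus strand) measured 99.4 and 85.8 FPKM in the RVC pair and 68.9 and 82.1 in the frozen pair. RVC 2 and fresh frozen 2 differed by less than the RVC libraries did from each other. The protein-coding transcript held 98.2% to 99.2% of the gene, and a transcript with a retained intron held the rest. The Jchain to Igha ratio was 0.342 and 0.352 in the RVC pair, and 1.03 and 0.611 in fresh frozen 1 and fresh frozen 2. The groups did not overlap, and fresh frozen 1 was the only library with more Jchain than Igha. Igkc to Jchain ratios were 5.28, 5.64, 2.50 and 3.73 in the order RVC 1, RVC 2, fresh frozen 1 and fresh frozen 2.

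Pigr (ENSMUSG00000026417, chromosome 1, 130754421 to 130779986, plus strand) measured 424 and 418 FPKM in the RVC pair and 474 and 477 in the frozen pair. It was slightly higher in both fresh-frozen libraries, whereas Igha, Igkc and Iglc1 were lower there. Its mean of 448 ± 31.6 FPKM (SD, n = 4) was the highest of the set, but Pigr led only in the frozen pair, and Igkc stood above it in both RVC libraries. By mean scaled FPKM it ranked 142nd of the 13775 genes tested, Igkc 172nd and Igha 341st. The full-length transcript ENSMUST00000027675 (3849 nt) carried 99.1% to 99.3% of Pigr. The Pigr to Igha ratio was 1.46 and 1.71 in the RVC pair, and 7.10 and 3.55 in fresh frozen 1 and fresh frozen 2. In these ratios fresh frozen 1 was again farthest from the RVC libraries.

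**Figure D3:**
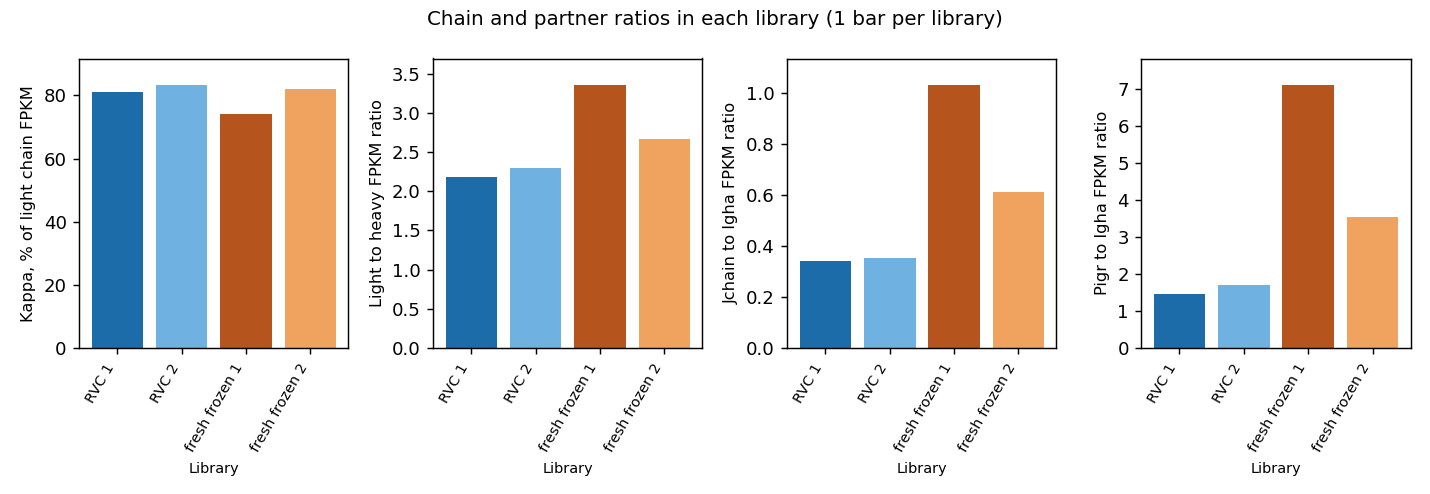
Kappa share of light chain FPKM and the ratios of light to heavy chain, Jchain to Igha and Pigr to Igha, with 1 bar per library and axes from 0. The last 3 ratios are higher in both fresh-frozen libraries, with fresh frozen 1 highest at 3.36, 1.03 and 7.10.

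The RVC and fresh-frozen libraries were compared with limma on log2(scaled FPKM + 1), two-sided, with Benjamini-Hochberg adjustment over all 13775 genes. This scale understates the change of low genes. Of the 10 members, 8 reached a mean of 1 FPKM and were tested, whereas Ighd and Ighg3 did not. None passed an adjusted p of 0.05 by limma (0 of 8), as against 0.0363% of all genes tested (0.0145% higher and 0.0218% lower in RVC). An unadjusted p under 0.05 was reached by 5 of 8, as against 18.4%. All 5 were higher in RVC, where the share over all genes was 9.38% (8.99% lower). The count over all genes moved from 5 to 8 without RVC 2, 17 without RVC 1, 37 without fresh frozen 1 and 22 without fresh frozen 2. The groups did not overlap for 7 of the 8, where the share over all genes was 53.2%. They were 6 higher in RVC, where the share over all genes was 26.5%, and Pigr lower, where it was 26.6%. The median log2 fold change of the 8 was 0.66, beside 0.0062 over all genes tested. Because the set was chosen with earlier results of these data known, these counts only describe it.

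Among the heavy chains, Igha had means of 267 ± 33.5 FPKM for RVC and 101 ± 47.9 for fresh frozen (SD, 2 libraries a group), with a log2 fold change of 1.49 (SE 0.299) and a limma adjusted p of 0.129. This fold change was 0.97 without fresh frozen 1. Without fresh frozen 2 it was 2.00, with a limma adjusted p of 0.0175 (0.0175 to 0.402 over all 13 alternatives). Over the 4 differences between a library of the RVC pair and a library of the frozen pair, the log2 difference of Igha ran from 0.84 to 2.13, while the fresh-frozen libraries differed by -1.03 (fresh frozen 1 less 2) and the RVC libraries by 0.26. So the spread within the fresh-frozen group exceeded the smallest difference between groups. The other heavy chain genes had log2 fold changes of 1.15 (Ighg1, limma adjusted p 0.13), 0.60 (Ighg2b, 0.271) and 0.36 (Ighm, 0.398). Without fresh frozen 1 these were 0.85, 0.32 and 0.061, and without RVC 2 that of Ighg2b was 0.33 and that of Ighm 0.21. That of Ighm was 0.66 without fresh frozen 2. With a pseudocount of 0.1 in place of 1, those of Ighg1 and Ighg2b were 2.44 and 1.04.

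For the light chains, Igkc had a log2 fold change of 1.14 (SE 0.255, limma adjusted p 0.13), which was 0.70 without fresh frozen 1. Without fresh frozen 2 it was 1.56, with a limma adjusted p of 0.0215 (0.0215 to 0.419 over all 13 alternatives). Iglc1 had a smaller log2 fold change of 0.73 (SE 0.112) but the lowest limma adjusted p of the members, 0.112, and its 4 pairings ran only from 0.60 to 0.86. The other lambda genes tested, Iglc2 and Iglc3, had log2 fold changes of 0.45 and 1.46 (limma adjusted p 0.307 and 0.306). Jchain had a log2 fold change of 0.30 (SE 0.138, limma adjusted p 0.295), which shrank to 0.16 without fresh frozen 1 and to 0.19 without RVC 1. Pigr had one of -0.17 (SE 0.118, limma adjusted p 0.452). All 4 pairings of Pigr were negative, from -0.21 to -0.14, and differences within groups were 0.029 (RVC 1 less 2) and -0.040 (fresh frozen 1 less 2). Ighm, Jchain and Pigr lay inside the range from the 5th to the 95th percentile of all genes tested, -0.41 to 0.45, and Igha, Ighg1, Ighg2b, Igkc and Iglc1 lay above it.

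**Figure D4:**
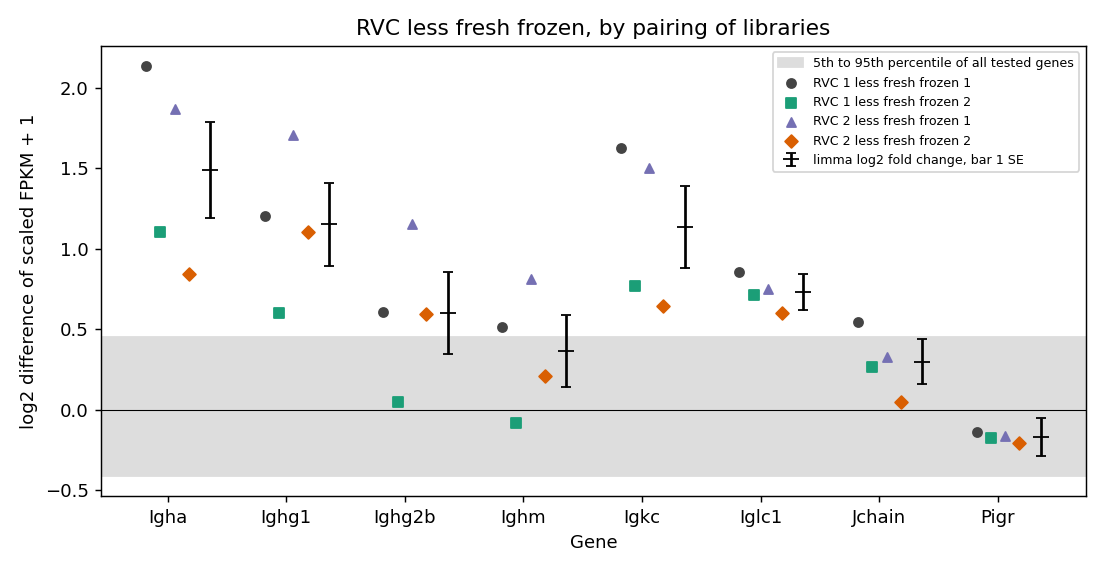
Log2 differences of scaled FPKM + 1 between RVC and fresh-frozen libraries for the 8 tested members, with 1 point for each pairing of libraries, and the limma log2 fold change with 1 SE. Points for Igha, Ighg1, Igkc and Iglc1 lie above the grey band in every pairing, and those of Pigr lie just under 0. The band holds the 5th to 95th percentile of the limma log2 fold changes of all tested genes. Single pairings can spread more widely than these fold changes, and no band was drawn for them.

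The summed variable genes, which share transcripts with the constant genes, ordered the libraries as Igha, Igkc and Iglc1 did. The kappa variable genes summed to 895, 816, 408 and 702 FPKM in RVC 1, RVC 2, fresh frozen 1 and fresh frozen 2, the heavy variable genes to 643, 508, 242 and 457, and the lambda variable genes to 123, 104, 59.0 and 60.7. Their medians of log2 fold change were 0.72, 0.67 and 0.65, and 0 passed the limma threshold.

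Genes that plasma cells use were next examined. Of 20 listed, 12 were tested and 0 passed in either direction. An unadjusted p under 0.05 by limma was reached by 2 of the 12, as against 18.4% of all genes tested. The median log2 fold change of the 12 was 0.016, with 6 positive and 6 negative. The groups did not overlap for 9 of them, as against 53.2% of all genes tested, with 5 higher (26.5%) and 4 lower (26.6%) in RVC. Mzb1, a chaperone of antibody assembly in B lineage cells, measured 4.43 and 4.15 FPKM in the RVC pair and 2.31 and 2.59 in the frozen pair, a log2 fold change of 0.62 (limma adjusted p 0.13). Sec11c, a signal peptidase subunit and the most abundant gene of the list, measured 42.7 and 53.8 FPKM in the RVC pair and 72.4 and 65.8 in the frozen pair, a log2 fold change of -0.51 (limma adjusted p 0.149). Cd38 had a log2 fold change of -0.22 (limma adjusted p 0.311). Secretory genes on this list, such as Xbp1, are also used by epithelial cells. The lineage regulators Prdm1 (0.506 to 0.784 FPKM) and Irf4 (0.35 to 0.54) and the survival receptor gene Tnfrsf17 (0.548 to 0.935) stayed under 1 FPKM in all libraries, far below Igha and Jchain. Prdm1, Irf4, Tnfrsf17, Tnfrsf13b and Pou2af1 stood higher in both RVC libraries than in either fresh-frozen library. For Irf4 the values were 0.536 and 0.540 FPKM in the RVC pair and 0.350 and 0.422 in the frozen pair. Eaf2 stood lower in both RVC libraries, and Derl3 and Slamf7 overlapped between the groups. These low genes were not among the genes tested.

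B cells and lymphoid follicles can also contribute immunoglobulin transcripts, above all of Ighm and Ighd. Of 17 B cell genes, 3 were tested and 0 passed (1 at an unadjusted p under 0.05 by limma, as against 18.4% of all genes tested). The list summed to 47.4 and 43.9 FPKM in the RVC pair and 28.3 and 44.1 in the frozen pair, with most of it in Cd74, the invariant chain gene that other antigen-presenting cells express as well (22.2 to 37.3 FPKM). Cd72 and Spib, the other genes tested, had log2 fold changes of 0.11 and 0.12. Ms4a1, which encodes the B cell surface protein CD20, measured 0.0738 in fresh frozen 1 and 0.216 to 0.721 FPKM elsewhere. The antigen receptor genes Cd79a and Cd79b measured 0.0939 and 0.157 FPKM in fresh frozen 1, and between 0.624 and 0.947 in the other 3 libraries. So fresh frozen 1 was lowest in these 3 B cell genes, as it was in Ighm and Ighd. Of the follicle list 4 of 10 were tested and 0 passed, with Ccl21a, a chemokine gene of lymphoid stroma and lymphatic vessels, highest at 63.7 and 82.1 FPKM in the RVC pair and 31.6 and 33.2 in the frozen pair (limma adjusted p 0.0741). Clu and Ltbr, next by p, had log2 fold changes of 0.18 and 0.11. An unadjusted p under 0.05 by limma was reached by 1 of the 4, as against 18.4% of all genes tested. The part of B cells and follicles in the immunoglobulin values was not tested.

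Smooth muscle, endothelial and most macrophage genes had higher values in both RVC libraries, and T cell genes did not separate the groups. All 10 smooth muscle genes lay higher in both RVC libraries than in either fresh-frozen library, as did 26.5% of all genes tested, and the list summed to 1196 and 1759 FPKM in the RVC pair and 750 and 800.2 in the frozen pair. Des, which encodes desmin, Cnn1, Smtn and Actg2, the most abundant, had log2 fold changes of 0.88, 0.88, 0.88 and 1.24 (limma adjusted p 0.114 to 0.129). All 8 endothelial genes did the same, with sums of 27.7 and 27.9 against 15.2 and 17.8 FPKM, and so did 6 of 8 tested macrophage genes, with sums of 120.4 and 122 against 90.7 and 81.2. The macrophage genes Csf1r and Mrc1 overlapped between the groups. Pecam1, Cdh5 and Emcn led the endothelial list (log2 fold changes 0.69, 0.71 and 0.58), and Lyz2, C1qa and C1qc the macrophage list (0.47, 0.67 and 0.72). By limma 0 genes of the 3 lists passed, and 10 smooth muscle, 7 endothelial and 5 macrophage genes had an unadjusted p under 0.05, as did 18.4% of all genes tested. T cell genes stayed low, with only Trbc2 tested (log2 fold change 0.28), at summed FPKM of 6.09 and 4.61 in the RVC pair and 4.67 and 4.69 in the frozen pair. The part of tissue composition in the immunoglobulin values was not tested.

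**Figure D5:**
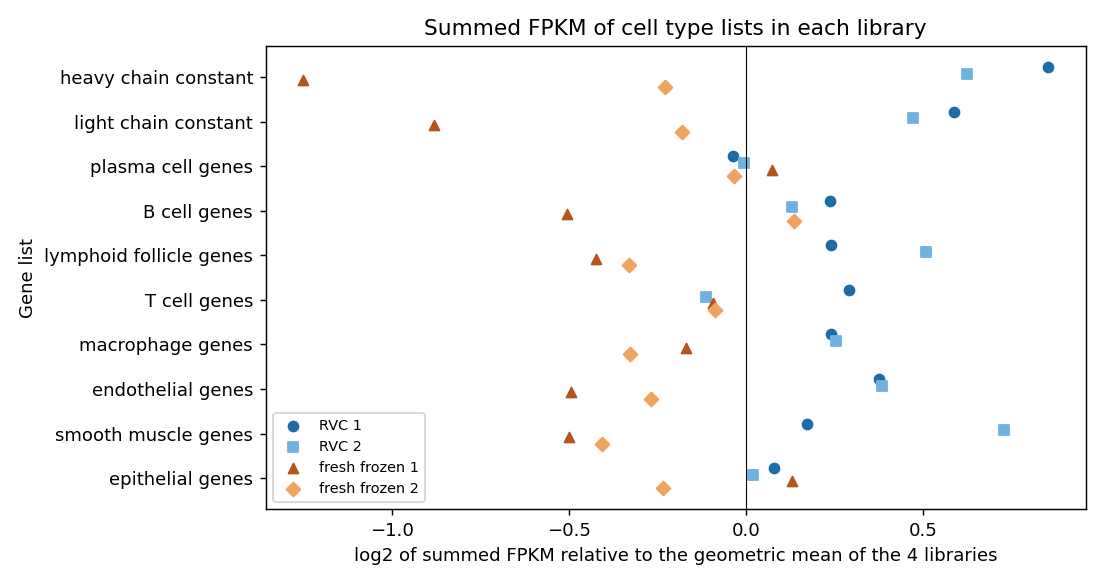
Summed FPKM of gene lists in each library, on a log2 scale relative to the geometric mean of the 4 libraries. Fresh frozen 1 lies lowest for the heavy and light chain genes and for the B cell, lymphoid follicle, endothelial and smooth muscle lists. The plasma cell, B cell, T cell and epithelial lists show no split by group.

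Epithelial genes, which mark the cells that hold Pigr, did not separate the groups as a sum. All 11 were tested and 0 passed, with 0 at an unadjusted p under 0.05 by limma, as against 18.4% of all genes tested. Higher in both RVC libraries were 4 of the 11, as were 26.5% of all genes tested. The median log2 fold change of the 11 was 0.090. Their sum was 9532 and 9163 FPKM in the RVC pair and 9890 and 7679.6 in the frozen pair, lowest in fresh frozen 2. Pigr hardly differed between the fresh-frozen libraries, at 474 and 477 FPKM. Vil1, Krt20 and Slc26a3, first by p, had log2 fold changes of 0.23, 0.25 and 0.28. Lgals4, the most abundant of them, measured 1768, 1804, 2099 and 1493 FPKM. Of 19 genes of Pigr trafficking and control 0 passed, with 13 log2 fold changes positive, 6 negative and a median of 0.16. An unadjusted p under 0.05 by limma was reached by 5 of the 19, as against 18.4% of all genes tested. Il17ra, the receptor for interleukin 17, a known inducer of Pigr, measured 6.56 and 6.22 FPKM in the RVC pair and 3.60 and 4.20 in the frozen pair (log2 fold change 0.60, limma adjusted p 0.131). Yes1, a kinase that takes part in Pigr transcytosis, had a log2 fold change of -0.36 (limma adjusted p 0.196), and Rela, an NF-kB subunit, one of 0.41 (limma adjusted p 0.198). Hnf4a, a transcription factor gene and the most abundant of the list, measured 189, 179, 175 and 150 FPKM. The recycling endosome genes Rab11a (124 to 143 FPKM), Rab25 (63.4 to 91.0) and Myo5b (39.9 to 48.8) each overlapped between the groups, but most genes of the list did not. Rab11fip1 and Rab17 lay higher in both RVC libraries (log2 fold changes 0.24 and 0.23), and Rab5a lower (-0.16). Of the 19, 9 lay higher and 4 lower in both RVC libraries, as did 26.5% and 26.6% of all genes tested.

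Signals for IgA switching and homing followed no common direction. Of 19 genes, 8 were tested and 0 passed, with 5 positive and 3 negative log2 fold changes and a median of 0.17. An unadjusted p under 0.05 by limma was reached by 4 of the 8, as against 18.4% of all genes tested. Ccl28, an epithelial chemokine that attracts IgA plasma cells to the colon, was the most abundant, at 26.0 and 27.3 FPKM in the RVC pair and 43.0 and 31.5 in the frozen pair (log2 fold change -0.45, limma adjusted p 0.198). Its receptor gene Ccr10 measured 0.585 and 0.55 FPKM in the RVC pair and 0.0776 and 0.492 in the frozen pair, with fresh frozen 1 lowest as for Igha. Tnfsf13, which encodes the plasma cell survival factor APRIL, measured 9.65 and 10.8 FPKM in the RVC pair and 13.2 and 12.4 in the frozen pair, and Tgfbr2, a receptor for the IgA switch factor TGF-beta, 15.3 and 15.5 against 12.2 and 12.0 (limma adjusted p 0.244 and 0.198). Il10 was listed at 0 in all libraries. Of 10 genes for other Fc and IgA receptors, 6 were tested and 0 passed. Among the 6, 1 had an unadjusted p under 0.05 by limma, as against 18.4% of all genes tested. Tfrc, the transferrin receptor gene, measured 18.6 and 18.4 FPKM with RVC against 37.8 and 48.8 (limma adjusted p 0.0741). Fcer1g had a log2 fold change of 0.35, and Lgals3, the most abundant, one of 0.25. Fcgrt, the neonatal Fc receptor gene, which carries IgG, measured 26.4, 31.2, 25.8 and 20.0 FPKM in RVC 1, RVC 2, fresh frozen 1 and fresh frozen 2.

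Likeness to the members was measured as the root mean square difference of log2(scaled FPKM + 1), each gene centred on its own mean over the 4 libraries. Nearest to Igha were Igkc (0.19), the small heat shock protein gene Hspb1 (0.24), the muscle filamin gene Flnc (0.29), Crybb3 (0.35) and Ighg1 (0.35), after passing over 14 variable genes and 3 predicted genes (9 and 5 for Igkc). Igkc had Flnc (0.14), Igha (0.19), Hspb1 (0.19), Crybb3 (0.22) and Ighg1 (0.24) as its nearest. Few genes lay close to these patterns, with 0 within 0.1 of Igha and 1 within 0.1 of Igkc. The flatter patterns of Jchain and Pigr were shared by many genes, with 832 and 2842 genes within 0.1. Nearest to Jchain were Fry, H4c11, Card14, Gna12 and Bcl9l (0.014 to 0.020), and nearest to Pigr were Snx18, Erbin, Mcm7, Ubr1 and Eci3 (0.0053 to 0.0095).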

How the data were processed

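RNA from 4 libraries was sequenced after ribosomal RNA depletion, as 150-bp read pairs, per the labels' protocols. Per the submitters' processing notes, alignment to GRCm39 used TopHat 2.1.1 and transcript estimates came from Cufflinks 2.2.1, both with defaults per the series' design text. The annotation release and strand setting are not given in the sources used here. The authors deposited FPKM with confidence bounds, whose level the headers do not state, and coverage, a signal of read depth per base. All 19 transcripts of the 10 members had status OK.

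Files were joined by transcript, gene FPKM was summed, and libraries were scaled by median ratio (factors 0.991 to 1.01). Levels and ratios are deposited FPKM, and fold changes are on log2(scaled FPKM + 1). Genes whose scaled FPKM averaged 1 or more, with a longest transcript of at least 300 nt and status OK throughout were fitted with limma 3.58.1 in R 4.3.3 (trended eBayes, no covariate), with a threshold of 0.05 on Benjamini-Hochberg adjusted p. The fit was also run on simulated data with independent libraries, which cannot show how it behaves where batch and handling coincide. Sequences were aligned with Biopython 1.88, tables used pandas 2.3.3 and figures matplotlib 3.10.9. Of 27 transcripts of the constant genes, Jchain and Pigr, 26 had the same ends in GENCODE vM39.

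Named were all members, the other constant genes, from each list the 3 tested genes of smallest p, the most abundant gene and defining genes at 0 in every library, and the 5 genes most like Igha, Igkc, Jchain and Pigr. Prdm1, Irf4, Tnfrsf17, Tnfrsf13b, Pou2af1, Eaf2, Derl3, Slamf7, Xbp1, Ms4a1, Cd79a and Cd79b were named after their values were seen. So were Ccr10, Csf1r, Mrc1, Rab11a, Rab25, Myo5b, Rab11fip1, Rab17 and Rab5a. Alternatives changed the pseudocount, scaling, filters, trend, block and libraries. Members and lists were chosen with earlier results of these data known.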

Additional observations from a re-analysis of the deposited data

How the results depend on the processing

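Of 100 alternative fits of the 8 tested members, 0 changed the sign of a fold change and 5 passed the threshold. These were Igha and Igkc without fresh frozen 2, given above, and 3 under the replicate block. The number of genes called moved from 5 to 0 when low values were kept or the trend was dropped (3531 and 2462 at an unadjusted limma p under 0.05) and to 14 at a mean of at least 5 FPKM. Leaving out a library gave between 8 and 37. The replicate block on sample number gave 123 genes and put Igha, Ighg1 and Iglc1 past the threshold, at limma adjusted p-values of 0.0238, 0.0189 and 0.046. The deviations of same-numbered samples from their group means correlated at r = -0.134 across 13775 genes, and no label says that a number marks a pair. A crossed pairing, chosen after seeing the data, gave 12 genes. Over all alternatives the limma adjusted p ran from 0.0175 to 0.402 for Igha and from 0.046 to 0.402 for Iglc1. These 5 shares and ratios moved by less than their SD over libraries with the most abundant transcript of each gene or coverage in place of FPKM. The minimum of 300 nt removed no transcript of these genes, so it could not move them. Leaving out a library cannot move a mean of so few libraries by its SD, so that setting could not fail this rule. Over all these settings the mean over libraries was 96.2% to 97.5% for the Igha share and 79.1% to 82.2% for the kappa share. Mean light to heavy ran from 2.38 to 2.77, mean Jchain to Igha from 0.435 to 0.665 and mean Pigr to Igha from 2.24 to 4.12. Each of these mean ratios was lowest without fresh frozen 1. Single libraries spread more widely, from 2.18 to 3.36, 0.342 to 1.03 and 1.46 to 7.10 in the same order. With the most abundant transcript alone, the means of some other measures moved by more than their SD. Among them were the Igha to Ighm ratio (from 63.9 to 117), the Ighm share (from 1.74% to 0.92%) and the Iglc2 share of light chain FPKM (from 2.25% to 1.31%). Ighg1 was not tested without RVC 2. Depth is unknown, and genes under 1 FPKM carry wide bounds.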
